A study of Rattus norvegicus with 2 samples.

Results

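Galectins, annexins and S100 proteins are 3 families of small cytoplasmic proteins that many cells also release. The genes described here are the galectins Lgals1 and Lgals3, the annexins Anxa1, Anxa2, Anxa5 and Anxa6, and the S100 genes S100a4, S100a6, S100a10 and S100a11. They were taken by their symbols from a deposited table of 17202 genes, and all 10 were found. The choice of genes was made with their values in these libraries known, so the values describe them and no test is attached.

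Galectins bind sugar chains that carry galactose on glycoproteins and glycolipids, and they cross-link receptors at the cell surface. Annexins bind acidic phospholipids when calcium rises, and they take part in membrane repair, in vesicle traffic and in the link between membrane and actin cortex. S100 proteins are calcium sensors of the EF-hand type that work as dimers bound to partner proteins, several of them annexins. In the brain many of these genes are known for their increase in reactive glia and in activated microglia.

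The data were RNA sequencing of primary oligodendrocyte precursor cells (OPCs) from brain of wild-type (WT) rats, the dividing cells that form myelinating oligodendrocytes. They were grown in OGM medium. One library came from cells given amyloid-beta (Aβ), the peptide of Alzheimer plaques, at 1 µM for 2 days, and 1 library from cells labelled DMSO, the solvent. The treatment text is the same for both samples and mentions Aβ alone, the titles carry P1, and the labels speak both of adult OPCs and of developing animals, so the age of the donors is not settled by them. No label says whether cells of several animals were pooled. The comparison addresses what Aβ does to OPC gene expression.

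The libraries held 15117102 estimated counts (Aβ) and 15019416 (DMSO). With 1 library per group there is no replicate: every difference below is one between 2 libraries, and the 95% intervals cover counting error only. Levels are given as TPM, a share of all transcripts that allows for transcript length. Ratios are Aβ over DMSO in CPM, which are counts scaled to library size by the TMM method. Of 8 OPC markers, Olig1 was the highest, at 850.3 TPM (Aβ) and 841 TPM (DMSO), and Cspg4 the lowest, at 14.4 TPM and 13.2 TPM. Gfap, an astrocyte filament gene, stood at 838 TPM (Aβ) and 793 TPM (DMSO).

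Of the 10 genes, 7 were lower in the Aβ library by more than counting error, by between 11.2% and 20.3%. They were Anxa1, S100a4, Lgals1, Anxa5, S100a10, Anxa2 and Lgals3. Anxa6 lay close to 1, and S100a11 and S100a6 had intervals too wide to place them. No gene reached a 2-fold difference, and none was higher by more than counting error. An interval wholly below 1 was found for 6.88% of the 13505 genes measured at 1 CPM or more, one wholly above 1 for 6.49%, and a 2-fold difference with an interval leaving out 1 for 0.674%. A ratio below 1, which all 10 genes had in CPM, was found for 50.3%. With TPM, 8 of the 10 lay below 1, and Anxa6 and S100a11 had ratios of 1.00 and 1.01. At smaller folds, 7 of the 10 genes were at least 1.1-fold lower with an interval below 1, beside 4.49% of measured genes, and 3 at least 1.2-fold (Anxa1, Lgals1 and S100a4), beside 2.35%. A 99% interval lay wholly below 1 for 6 of the 10 and for 3.38% of measured genes. The median log2 ratio was -0.20 over the 10 genes and -0.0008 over all measured genes. Since the genes were chosen on this contrast, nothing further is read from these shares. In bulk RNA, fewer cells of a type and less RNA per cell cannot be told apart.

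In level, the 10 genes spanned a 30.6-fold range in the DMSO library. S100a10 was the most abundant, at 1047 TPM (DMSO), rank 141 of all genes listed. Lgals1, S100a4, Anxa6 and Lgals3 followed between 332.5 TPM and 544 TPM, all within the top 2.31% of genes. Anxa2 stood at 141 TPM, Anxa1 at 63.1 TPM and S100a11 at 46.7 TPM. S100a6 and Anxa5 were the least abundant, at 38.2 TPM and 34.3 TPM. This order was nearly the same with Aβ, where S100a4 and Anxa6 changed places, as did S100a6 and Anxa5. Counting intervals of both pairs overlapped in the DMSO library, while Anxa6 lay above S100a4 by more than counting error with Aβ. They also overlapped for S100a11 and S100a6 (DMSO), and for S100a4 and Lgals3, Anxa1 and S100a11, and Anxa5 and S100a6 (Aβ).

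**Figure D1:**
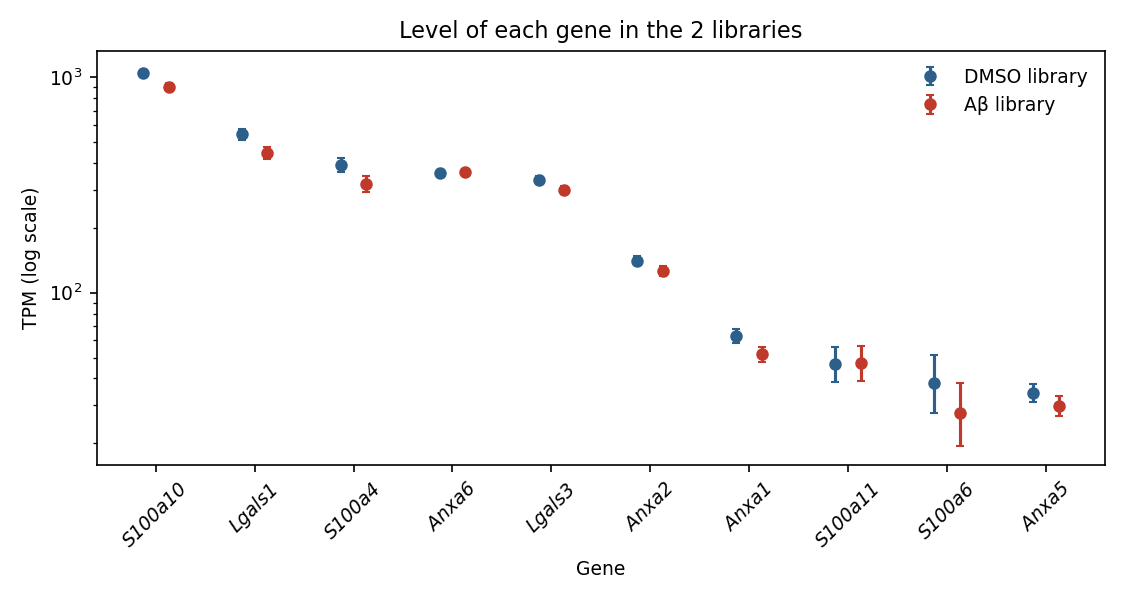
TPM of each gene (log axis) in the DMSO library and the Aβ library, ordered by the DMSO value; bars are 95% Poisson intervals of the counts, scaled to TPM. S100a10 is highest at 1047 and 906 TPM, and Anxa6 has nearly the same level in both libraries.

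Both galectins were lower with Aβ. Lgals1 encodes galectin-1, a secreted dimer with 1 sugar-binding domain per chain. It had 1085 counts (DMSO) and 900 counts (Aβ), or 544 TPM and 447 TPM. Its ratio was 0.823 (0.752 to 0.900). Lgals3 encodes galectin-3, which joins a sugar-binding domain to a tail through which it forms oligomers, and which is widely used as a marker of activated phagocytes. It had 2244 counts (DMSO) and 2008 counts (Aβ), or 332.5 TPM and 301 TPM. The ratio was 0.888 (0.835 to 0.943). The intervals of the 2 galectins overlapped.

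These galectins made up most galectin transcripts in the culture. Lgals1 held 56.5% of summed galectin TPM (DMSO) and 53.6% (Aβ), and Lgals3 34.6% and 36.1%. Lgals8, a galectin with 2 sugar-binding domains that detects damaged vesicles, stood at 37.9 TPM (DMSO) and 38.4 TPM (Aβ), with a count ratio of 0.981 (0.893 to 1.08). Lgalsl, a galectin-like gene, had a ratio of 0.964 (0.896 to 1.04). Lgals9 had 48 counts (DMSO) and 40 counts (Aβ), a ratio of 0.827 (0.529 to 1.28). Lgals4, Lgals5 and Grifin had at most 1 count in a library, and no ratio is given for them. All 5 measured galectin genes had a CPM ratio below 1, Lgals8 with a TPM ratio above 1, and the interval left out 1 for Lgals1 and Lgals3.

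Of the annexins, Anxa1 had the lowest ratio among the 10 genes. Its product mediates part of the anti-inflammatory action of glucocorticoids through formyl peptide receptors. There were 733 counts (DMSO) and 589 counts (Aβ), or 63.1 TPM and 51.7 TPM. The ratio was 0.797 (0.714 to 0.890). Anxa5, whose protein is the common probe for phosphatidylserine on dying cells, had 423 counts (DMSO) and 355 counts (Aβ), or 34.3 TPM and 29.9 TPM. Its ratio was 0.832 (0.721 to 0.961). Anxa2, which recruits S100a10 to the membrane, had 1546 counts (DMSO) and 1367 counts (Aβ), or 141 TPM and 127 TPM. Its ratio was 0.877 (0.815 to 0.944).

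Anxa6 had a ratio closer to 1 than these 3. It is the large annexin, built from a doubled set of the repeats that other annexins carry. It had 9044 counts (DMSO) and 8895 counts (Aβ), or 361 TPM and 362 TPM, and a ratio of 0.976 (0.947 to 1.00). With the highest counts of the 10 genes it also had the narrowest interval. That interval lay wholly above those of Lgals1, Lgals3, Anxa1, Anxa2, S100a4 and S100a10, but overlapped that of Anxa5 (0.721 to 0.961). Anxa6 supplied 48.1% of all counts of the 10 genes (DMSO). Their summed counts had a ratio of 0.914, and without Anxa6 the other 9 had 0.857. The genes were chosen, and Anxa6 left out, with these values known, so both sums only describe the counts.

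The other measured annexins all had intervals that included 1. Anxa7, which binds membranes of secretory vesicles, had a ratio of 0.939 (0.849 to 1.04), Anxa4 0.936 (0.779 to 1.12) and Anxa11, which tethers RNA granules to lysosomes, 1.06 (0.947 to 1.19). Anxa3 rested on 25 counts (DMSO) and 20 counts (Aβ), a ratio of 0.794 (0.418 to 1.49). Anxa8, Anxa9 and Anxa10 were below the level of measurement. In TPM, Anxa6 held 52.4% of the annexin sum (DMSO) and 54.8% (Aβ), and Anxa2 20.4% and 19.1%.

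Among the S100 genes, S100a10 and S100a4 were lower with Aβ by more than counting error, while S100a11 and S100a6 had intervals that included 1. S100a10 encodes p11, the partner of annexin A2 that no longer binds calcium in its EF hands. It had 2822 counts (DMSO) and 2447 counts (Aβ), or 1047 TPM and 906 TPM. The ratio was 0.860 (0.814 to 0.908). S100a4, which binds nonmuscle myosin IIA and is known for cell motility, had 727 counts (DMSO) and 602 counts (Aβ), or 393 TPM and 319.8 TPM. Its ratio was 0.821 (0.736 to 0.916).

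S100a11, a partner of annexins A1 and A2, had 117 counts (DMSO) and 115 counts (Aβ), or 46.7 TPM and 47.0 TPM. Its ratio of 0.975 had a wide interval (0.747 to 1.27), which spans the ratios of the other 9 genes. S100a6, or calcyclin, had 43 counts (DMSO) and 37 counts (Aβ), and a ratio of 0.853 (0.535 to 1.36). A difference of the size seen in S100a10 was not detectable at this depth in either gene. For S100a6 the TPM values lay further apart, 38.2 (DMSO) against 27.6 (Aβ), a ratio of 0.723. The transcript length left for counting that the deposited values imply was 104 bases (DMSO) and 126 bases (Aβ) for this gene, so its TPM rests on different lengths in the 2 libraries.

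S100a10 transcripts exceeded those of its partner Anxa2 by 7.43-fold in TPM (DMSO) and 7.16-fold (Aβ). In counts, S100a10 had 2822 against 1546 of Anxa2 (DMSO). The TPM excess thus rests largely on the implied transcript lengths left for counting, 249 and 1012 bases (DMSO). Both genes were lower with Aβ, and the intervals of their ratios overlapped. Ahnak, a giant scaffold that the complex of annexin A2 and p11 binds, was present at 5.03 TPM (DMSO) and 5.42 TPM (Aβ), with a count ratio of 1.06 (0.960 to 1.16).

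The remaining measured S100 genes had ratios closer to 1 than S100a10 and S100a4. S100b, common in astrocytes and in cells of the oligodendrocyte lineage, had 3801 counts (DMSO) and 4049 counts (Aβ), or 302 TPM and 327 TPM. Its ratio was 1.06 (1.01 to 1.105), the one gene of the 3 families with an interval wholly above 1. S100a13, which takes part in the release of growth factors without a signal peptide, had 1.01 (0.899 to 1.14), S100a1 0.944 (0.780 to 1.14) and S100a3 1.102 (0.852 to 1.43). S100a16 had 1341 counts (DMSO) and 1249 counts (Aβ), and a ratio of 0.924 (0.855 to 0.999). Of the 12 measured genes of the families outside the 10, 8 lay below 1 in CPM (7 in TPM) and 4 above, with a median log2 ratio of -0.07. Their summed counts had a ratio of 1.00 (0.973 to 1.03).

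**Figure D2:**
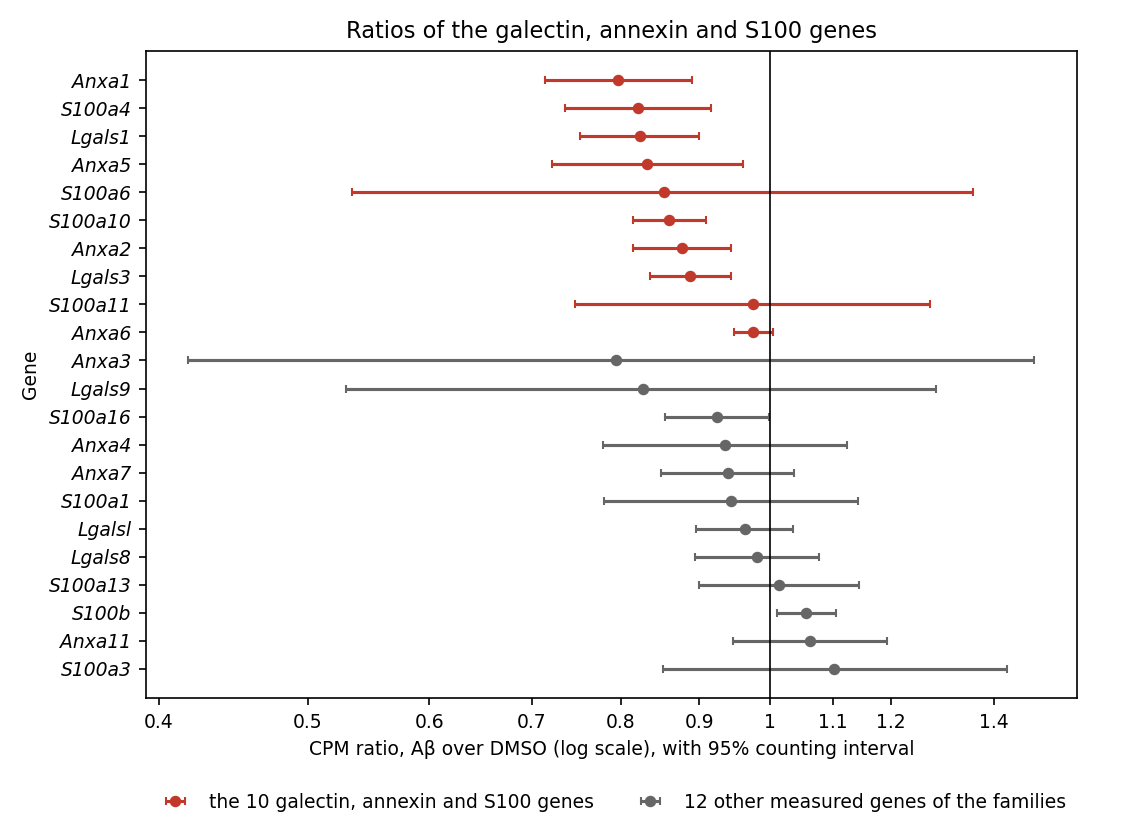
CPM ratio of Aβ over DMSO (log axis) with 95% counting intervals for the 10 genes (upper, red) and the 12 other measured genes of the families (lower, grey), each sorted by ratio; the vertical line is a ratio of 1. Intervals of 7 of the 10 genes lie left of the line, Anxa6 has the narrowest, and S100b is the one gene wholly to the right.

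Many S100 genes lie on rat chromosome 2, though not all side by side. The promoter window of S100a4 starts at base 178388379, and that of S100a11 at base 181874982. RefSeq's table for the build GRCr8 orders 16 entries of the family from S100a1 to S100a10, of which 9 had a row in the deposited table. The rest were not analysed here, and genes outside the family were left out of this order. Levels differed sharply between neighbours: S100a5, which lies between S100a4 and S100a6, had 3 counts (DMSO) and 1 count (Aβ), against 727 and 602 counts of S100a4. S100a11 and S100a10 are next to each other apart from 1 pseudogene, at 46.7 TPM and 1047 TPM (DMSO). The 2 genes that were lower by more than counting error and belong to the 10, S100a4 and S100a10, are not neighbours. In this order, the nearest S100 genes with a row in the deposited table had intervals that included 1. These were S100a3 (0.852 to 1.43), S100a5 (0.006 to 4.12) and S100a11 (0.747 to 1.27), and such wide intervals do not show the neighbours as unchanged. Beyond S100a3, S100a16 had a ratio of 0.924 with an interval below 1 (0.855 to 0.999).

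**Figure D3:**
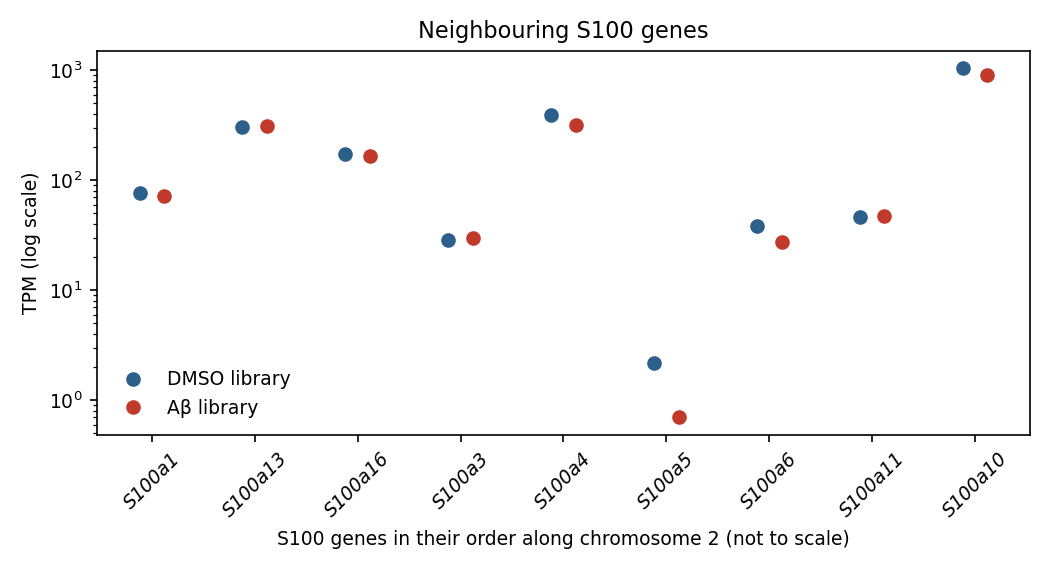
TPM (log axis) of the 9 S100 genes with a row in the deposited table, in the DMSO library and the Aβ library. They are drawn in their order along rat chromosome 2, not to scale and with all other genes left out. S100a10 and S100a4 are the highest, and S100a5, with 3 and 1 counts, the lowest.

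Promoter sequence was in the RefSeq table for 6 of the 10 genes. For 3 of these (Anxa1, Anxa5 and S100a6) the stretch before the listed start overlaps the gene's own span, so it is not printed. The 150 bases before the start of the other 3 are shown because they do not overlap it. Anxa2 and S100a4 had intervals wholly below 1, and that of S100a11 included both 1 and the ratios of the other two. All 3 are on the + strand of GRCr8, at chr8:78986102-78986251 for Anxa2, chr2:178388379-178388528 for S100a4 and chr2:181874982-181875131 for S100a11. Capitals mark matches, on either strand, to the TATA box (TATAAA), to the GC box (GGGCGG) or to an AP-1 site (TGANTCA).
Anxa2: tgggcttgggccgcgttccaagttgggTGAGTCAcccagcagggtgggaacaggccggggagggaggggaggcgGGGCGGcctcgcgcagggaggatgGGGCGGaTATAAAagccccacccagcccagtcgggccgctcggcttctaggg
S100a4: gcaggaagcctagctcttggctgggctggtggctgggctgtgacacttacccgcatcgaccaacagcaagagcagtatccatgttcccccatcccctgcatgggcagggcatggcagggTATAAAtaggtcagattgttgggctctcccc
S100a11: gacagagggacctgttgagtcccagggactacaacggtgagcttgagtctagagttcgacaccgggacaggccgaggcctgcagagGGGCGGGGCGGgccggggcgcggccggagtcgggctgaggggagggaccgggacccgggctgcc

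TATAAA was present in the windows of Anxa2, S100a4 and Anxa1, 3 of 6, and in 8.16% of 27457 promoter windows of this length. It began 45 bases before the start in Anxa2 and 31 bases before it in S100a4. GGGCGG was present in 4 of 6 (Anxa2, Anxa5, S100a6 and S100a11) and in 27.8% of all windows, and the 2 matches of S100a11 overlap by 1 base. TGANTCA was present in Anxa2 and in 3.61% of all windows. The CCAAT box had no match in the 6 windows and was present in 23.7% of all. Nor was there a match to CATTCC, the TEAD site, which 7.13% of all windows hold. These matches describe the letters and say nothing of binding.

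Many of the 10 transcripts are short, and the ratio moved with length across all genes. Among genes with at least 100 whole counts in both libraries, the median log2 ratio was -0.04 below 300 bases of effective length (153 genes) and 0.02 from 4000 bases up (2316 genes). For the shortest of the 10 genes (S100a4, S100a6, S100a10, S100a11 and Lgals1) the running median over the genes nearest in length was -0.05. With that trend subtracted, the median of the 10 genes was -0.17, and 7 genes had an interval wholly below 1. S100a11 then had a log2 ratio of 0.01.

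**Figure D4:**
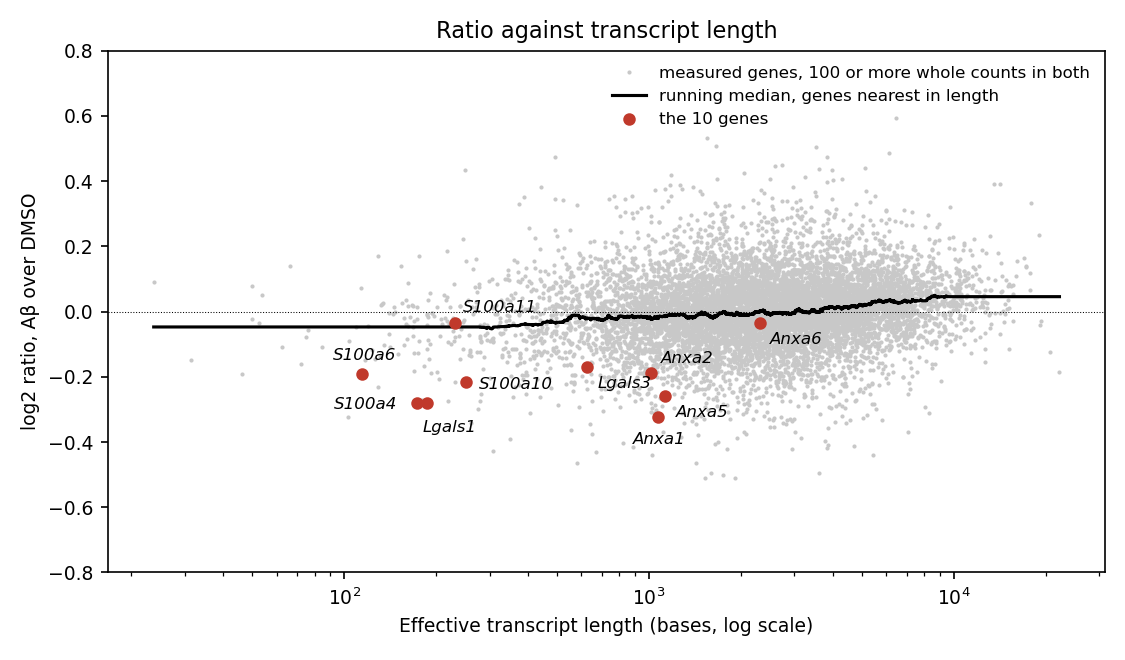
log2 ratio of Aβ over DMSO against effective transcript length in bases (log axis) for measured genes with at least 100 whole counts in both libraries (grey), the running median over the genes nearest in length (line) and the 10 genes (red). The line runs from -0.05 for the shortest genes to above 0 for the longest. The points of 8 of the 10 genes lie well below it, with S100a11 and Anxa6 near it. That of S100a6 rests on 43 counts (DMSO) and 37 counts (Aβ), too few to place it.

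The partner lists had medians close to 0, while single partners lay as far from 1 as the 10 genes. Of 42 measured genes in 4 lists of partners, 24 had a CPM ratio below 1 and 18 above, with a median log2 ratio of -0.01. With TPM, which shifts the median log2 ratio of all measured genes to 0.04, 12 lay below 1 and 29 above. Intervals lay wholly below 1 for 2 of the 42 and above 1 for 3, beside 6.88% and 6.49% of all measured genes.

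The enzymes that branch and cap N-glycans, and so set the sugars that galectins can bind, were 4 above 1 and 6 below, with a median of -0.02. Mgat5, which adds the branch most favoured by galectin-3, had 261 counts (DMSO) and 305 counts (Aβ), a ratio of 1.16 (0.979 to 1.37) with fractional counts. Mgat3, which adds the bisecting sugar, had 1.07 (0.973 to 1.18), and Mgat4a 0.945 (0.820 to 1.09). Known glycoprotein ligands of galectins had a median of -0.02. Itga5, the fibronectin receptor subunit, was lower, with 522 counts (DMSO) and 415 counts (Aβ) and a ratio of 0.789 (0.692 to 0.899). The hyaluronan receptor Cd44 had 0.948 (0.894 to 1.00) and the lysosomal membrane protein Lamp2 1.05 (1.00 to 1.09).

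Binding partners and receptors of annexins and S100 proteins were 5 above 1 and 5 below, with a median of -0.004. The plasminogen receptor Plgrkt had 451 counts (DMSO) and 378 counts (Aβ), a ratio of 0.831 (0.723 to 0.955). Plau, the urokinase that activates plasminogen, had 109 and 82 counts, a ratio of 0.746 (0.553 to 1.00). Myh9, the heavy chain that S100a4 binds, was listed at 1.403 (1.32 to 1.49) with fractional counts, and together with its near-copy Myh9l1 it had 1.01 (0.965 to 1.07). Cacybp, the calcyclin-binding protein, had 0.978 (0.923 to 1.04). In membrane repair and phosphatidylserine exposure, 5 lay above 1 and 7 below, with a median of -0.001. Dysf (dysferlin) had 50 counts (DMSO) and 38 counts (Aβ), a ratio of 0.754 (0.481 to 1.17), Chmp4b, an ESCRT-III subunit, 1.19 (1.03 to 1.36) with fractional counts, and the calpain Capn1 0.945 (0.687 to 1.299).

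**Figure D5:**
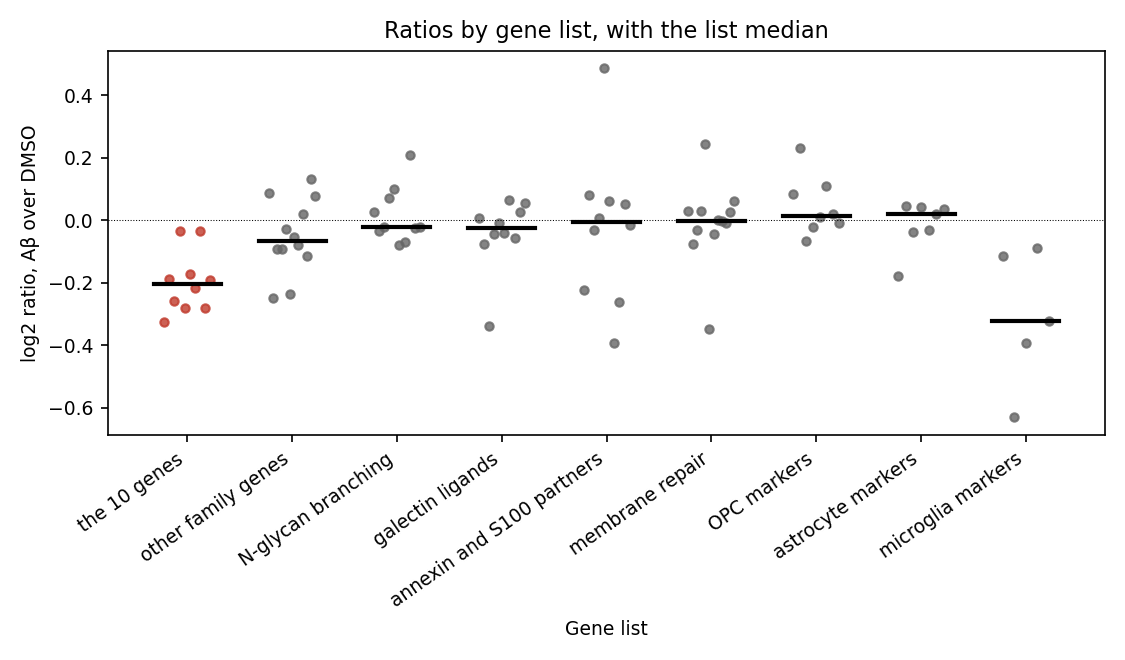
log2 ratio of Aβ over DMSO for each measured gene (points) and the list median (bars) in the 10 genes (red), the other family genes, 4 lists of partners and 3 lists of cell type markers (grey). The bar of the 10 genes lies at -0.20, those of the partner lists between -0.02 and 0, and that of the 5 sparse microglia markers at -0.32.

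Several of the 10 genes, Lgals3 and Anxa1 among them, are also expressed by microglia, macrophages or fibroblasts. Microglia and macrophage markers were sparse: 10 of 10 were listed, their TPM summed to 15.3 (DMSO) and 12.4 (Aβ), the highest in TPM, Aif1, stood at 5.66 and 5.13, and the highest in counts, Csf1r, had 50 and 47. All 5 that were measured had a ratio below 1, and the summed counts of the 10 were 174 and 146, a ratio of 0.832 (0.663 to 1.04). Lgals3 alone stood at 332.5 TPM (DMSO). Fibroblast and pericyte markers summed to 5.14 TPM (DMSO) and 5.54 TPM (Aβ) over 7 of 8 listed, and endothelial markers to 1.21 TPM and 1.04 TPM over 4 of 6. Among the fibroblast markers Col1a2 was higher with Aβ, with 81 counts (DMSO) and 129 counts (Aβ) that were partly fractional and a ratio of 1.58 (1.19 to 2.11). Lum had 2 and 0 counts, and Rgs5 1 and 0. The part of these cells in the lower values of the 10 genes was not tested.

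Markers of astrocytes, which also express several of the 10 genes, differed widely in level, and their sum was not lower with Aβ. The sum came mainly from Gfap, Aldoc and Slc1a3, at 793, 441 and 373 TPM (DMSO). Slc1a2 stood at 9.48 TPM (DMSO) and 11.07 TPM (Aβ), and Gjb6 had 1 count in each library. They summed to 1815 TPM (DMSO) and 1904 TPM (Aβ) over 8 of 8 listed, and their summed counts had a ratio of 1.02 (1.01 to 1.03). Of the 7 measured, 4 lay above 1 and 3 below. Gfap, at 1.03 (1.01 to 1.05), and the glutamate transporter Slc1a3, at 1.03 (1.00 to 1.05), had intervals wholly above 1, and Aldh1l1, at 0.883 (0.809 to 0.963), 1 wholly below. OPC markers summed to 2150.3 TPM (DMSO) and 2224 TPM (Aβ), and those of maturing oligodendrocytes to 559 TPM and 598 TPM. Neuron markers summed to 583 TPM and 611 TPM, and Schwann cell markers to 345 TPM and 354 TPM. TPM shifts the median log2 ratio of all measured genes to 0.04. Summed counts of these lists had ratios of 1.02 (OPC), 1.04 (oligodendrocyte), 1.03 (neuron) and 1.01 (Schwann cell). In the oligodendrocyte list Mobp was near 0, with 1 count (DMSO) and 2 counts (Aβ). Which cells of the culture carry the transcripts of the 10 genes cannot be told apart in bulk RNA.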

How the data were processed

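RNA from 2 OPC cultures was profiled, 1 library per group. Per the submitters' processing notes, reads were aligned with Bowtie2 to Rnor_6.0; no label names the quantifier, the annotation release or the use of strand. The authors' estimated counts, TPM and FPKM were read as deposited. The authors' normalized count column (a scaled signal) equalled the count rounded up, divided by 1 constant per library, for 100% of values above 0, and was not used. Estimated counts were rounded, and all 10 genes had whole counts. CPM used TMM effective library sizes (edgeR 4.0.16, R 4.3.3), and size factors of DESeq2 1.42.0 were an alternative. Log2 ratios used a pseudocount of 0.5 CPM, which understates low genes. Intervals of ratios are exact 95% Clopper-Pearson intervals given the sum of both counts, and intervals of TPM are Poisson. Effective length was computed as count over FPKM and the library total. The ratio code was tested on simulated data. Without replicates no test was run and no p-value computed.

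Genes were chosen, and all lists written, with earlier results of these data known. The text names all 10 genes, every other measured gene of the families, per partner list the 3 genes furthest from a ratio of 1, and Ahnak, Cacybp and Mgat5. Of the 8 lists of cell type markers it gives sums and examples, and other genes it names were chosen after their values were seen. All 10 symbols matched the RefSeq table of GRCr8 by gene identifier. By name, GRCr8 holds 8 near-copy entries of Anxa2, 7 of S100a11 and 1 each of Lgals1 and S100a10. No near-copy entry of the 10 genes was in the deposited table, so how reads from such copies were assigned cannot be told.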

Additional observations from a re-analysis of the deposited data

How the results depend on the processing

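No paired analysis was possible because each group had 1 library, and no library could be left out. The median log2 ratio of the 10 genes lay between -0.24 and -0.17 over the alternatives (DESeq2 size factors, total counts, TPM, length trend removed, pseudocount 5, a filter of 10 CPM, no filter, 99% intervals). An interval wholly below 1 was found for 7 genes under each of these that gives an interval except the 99% one, where 6 had one. The pseudocount does not enter the intervals and all 7 genes exceed 10 CPM, so the pseudocount and filter settings could not change this count. Likewise, no filter and 99% intervals could not change the median. With the fold lowered from 2 to 1.2, the count of genes past it with an interval leaving out 1 went from 0 to 3 (2.35% of all measured genes were lower by that rule), and with 1.1 to 7 (4.49%). The sign of the log2 ratio changed for Anxa6 with TPM (0.003) and for S100a11 with TPM (0.009) and with the length trend removed (0.01). Of the partner genes, 12 lay below 1 with TPM against 24, where the median of all measured genes is shifted by 0.04. FPKM gave the same order of levels as TPM for all 10. Adding near-copies was not run, since the table held none, and TPM has no interval of its own. Counting depth limits S100a6 and S100a11.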
